A study of Ovis aries with 12 samples.

Results

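The genes described here are receptors and enzymes of gonadal hormone signalling in the ewe hippocampus: the oestrogen receptors ESR1 and ESR2, the progesterone receptor PGR, the prolactin receptor PRLR, the oxytocin receptor OXTR, aromatase (CYP19A1) and steroid 5-alpha-reductase 1 (SRD5A1). They were chosen by symbol in the deposited gene count table, which found 5 of the 7 genes among 33609. Aromatase was found under its older symbol CYP19 by way of a RefSeq synonym of the same GeneID (100144423), which makes 6. PRLR was not analysed here.

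The animals were adult ewes of the Ile-de-France breed, 6 kept under control conditions and 6 exposed to chronic stress. Dorsal and ventral hippocampus were taken from every animal, and the RNA of 2 ewes was mixed in equal amounts for each library. Crossing region with condition gives 4 groups, called dorsal control, dorsal stress, ventral control and ventral stress, with 3 libraries each, and the labels name no genotype, drug or hormone treatment. Differences between single ewes are thus averaged within a library. Both regions come from the same animals, which the tests between regions treat as independent. The series abbreviates dorsal as DG, and whether more than the dentate gyrus was dissected is not stated in the sources used here. The labels used here do not give the stage of the oestrous cycle.

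Oestradiol and progesterone act in the brain mainly through nuclear receptors that bind DNA as ligand-activated transcription factors, and PGR is a classic gene induced by ESR1. Aromatase makes oestradiol from testosterone inside neurons, while 5-alpha-reductase starts the conversion of progesterone to allopregnanolone, a neurosteroid that enhances GABA-A receptors. Oxytocin acts through a G protein-coupled receptor that is known in the hippocampus for its part in social memory. Prolactin signals through JAK2 and STAT5, with SOCS proteins as feedback inhibitors.

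Library totals ran from 12254743 to 53775720 counts, and all 3 dorsal control libraries exceeded all 3 dorsal stress libraries in depth. Levels are given as CPM, the count divided by the TMM-scaled library size in units of 1e+06, which takes no account of gene length, so that levels of different genes are not compared with each other. The first principal component of log2 CPM did not part the groups, and ventral control 3 and ventral stress 3 lay highest on it, at 105 and 80.8. Markers of hippocampal neurons summed to between 2749 and 4892 CPM in the 12 libraries. Of these 13 markers IYD had 0 counts in 10 of 12 libraries, and the others had counts in all. ESR1, OXTR and SRD5A1 had counts high enough to be tested, and ESR2, PGR and CYP19A1 did not.

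ESR1, the alpha form of the oestrogen receptor and the main mediator of oestradiol action on reproduction, was lower in dorsal than in ventral hippocampus, and of the 3 tested members it was the 1 that passed the test. In dorsal control libraries 1 to 3 its level was 4.29, 4.32 and 4.34 CPM, from 218, 192 and 111 counts. In dorsal stress libraries it was 2.49, 4.81 and 4.49 CPM, from 50, 95 and 55 counts. In ventral control libraries it was 6.78, 9.42 and 14.3 CPM, from 282, 190 and 511 counts. The ventral stress libraries held 8.01, 8.30 and 10.6 CPM, from 207, 210 and 355 counts. The 6 dorsal libraries did not overlap the 6 ventral ones, as was the case for 4.9% of all tested genes, and the level of the lowest ventral library was 1.41 times that of the highest dorsal one.

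The group means of ESR1, from high to low, were those of ventral control (10.2 ± 3.82 CPM), ventral stress (8.96 ± 1.41), dorsal control (4.31 ± 0.0225) and dorsal stress (3.93 ± 1.26; SD, n = 3 each). Neighbours within a region overlapped, and the step from ventral stress to dorsal control is the one where libraries did not. Dorsal control libraries lay close together for ESR1, with a coefficient of variation of 0.521% against 37.6% in ventral control. At 111 to 218 counts a library, a spread this small lies below counting error and does not measure the spread between pools. On raw library totals the same group had 4.32 ± 0.230 CPM.

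The log2 fold change of ESR1 between dorsal and ventral tissue over both conditions was -1.21 ± 0.23 (SE; edgeR adjusted p = 0.0150), a 2.32-fold lower level, with a 95% interval from -1.73 to -0.70. Across all 17806 tested genes, 4.51% were called in this comparison (1.44% higher and 3.07% lower in dorsal tissue), beside 1 of 3 tested members. Within control ewes the log2 fold change was -1.24 ± 0.33 (edgeR adjusted p = 0.144), and within stressed ewes -1.19 ± 0.33 (edgeR adjusted p = 0.187). These comparisons of 3 against 3 libraries called 1% of all genes in control ewes (0.247% higher, 0.753% lower) and 0.444% in stressed ewes (0.0842% higher, 0.359% lower) and 0 of the 3 members tested, and their sizes for ESR1 differed by less than 1 SE. In bulk tissue, fewer cells that express a gene and less RNA per cell cannot be told apart.

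Leaving out any single library kept the ESR1 call, with adjusted p between 0.00690 and 0.0479. The 2 highest ESR1 values came from ventral control 3 and ventral stress 3, and without both the log2 fold change was -0.98 ± 0.23 (edgeR adjusted p = 0.0502). A fit that included a score of choroid plexus markers gave -1.004 ± 0.51 (edgeR adjusted p = 0.835). In that fit 0 genes were called between the regions in edgeR, although 1002 had an unadjusted p under 0.05. The score lay between -0.151 and 0.657 in dorsal and between -0.403 and -0.0613 in ventral libraries. Of 17 tested choroid plexus markers 4 were higher in dorsal tissue, TTR and AQP1 among them, and 1 was lower. The list summed to 617 to 3114 CPM in dorsal and 283 to 668 CPM in ventral libraries.

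**Figure D1:**
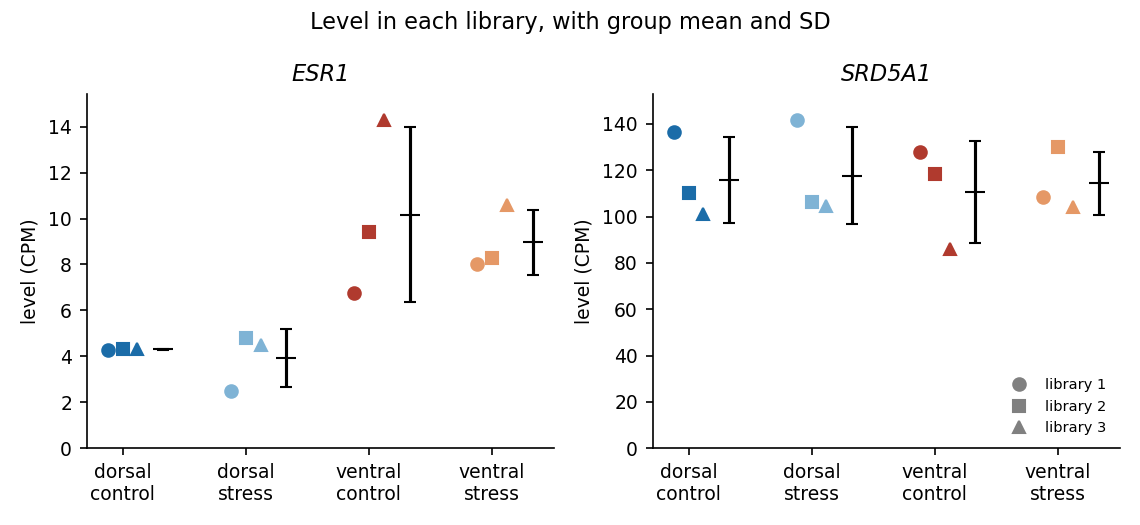
Levels of ESR1 and SRD5A1 in CPM in each of the 12 libraries by group, with marker shapes for libraries 1 to 3 and bars for the group mean and SD. The ESR1 values of ventral libraries lie between 6.78 and 14.3, all above the dorsal ones, while SRD5A1 values of the 4 groups overlap.

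ESR1 did not pass the test for stress in either region. The log2 fold change of stress against control was -0.14 ± 0.33 in dorsal tissue (edgeR adjusted p = 1.00; 95% interval -0.87 to 0.59). It was -0.18 ± 0.32 in ventral tissue (edgeR adjusted p = 1.00; 95% interval -0.90 to 0.54). The difference of both effects was 0.05 ± 0.46 (edgeR adjusted p = 1.00). The intervals hold the effects that the values allow and are not a limit of detection with 3 libraries a group. The regional difference of ESR1 in control ewes, -1.24, lies outside both and did not pass the test either. Control and stress libraries overlapped for ESR1, OXTR and SRD5A1 in dorsal and in ventral tissue, where 5.13% and 2.86% of tested genes did not overlap. They also overlapped for ESR2, PGR and CYP19A1, which were not among the tested genes. For CYP19A1 every group held libraries with 0 counts, so that overlap was the only possible outcome. Of all genes, edgeR called 0% for stress in dorsal tissue, in ventral tissue and for the difference, with 152, 142 and 46 genes at an unadjusted p under 0.05, and DESeq2 called 1, 1 and 0 genes.

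Markers of other cell types and tissues also differed between the regions. Of 11 tested meningeal fibroblast markers 8 were lower in dorsal tissue, and the list summed to 176 to 284 CPM in dorsal and 387 to 740 CPM in ventral libraries. Interneuron markers summed to 421 to 480 CPM in dorsal and 629 to 773 CPM in ventral libraries, with LHX6, GAD1 and VIP lower in dorsal tissue and SST at 0 counts in every library. Of 9 striatal markers 3 were lower in dorsal tissue, DRD1 and PENK among them, while the summed levels overlapped at 147 to 213 and 170 to 213 CPM. Of 12 tested hippocampal neuron markers 2, CAMK2A and NEUROD2, were higher in dorsal tissue and 0 lower, with 9 positive and 3 negative values and sums of 3949 to 4892 against 2749 to 3684 CPM. Of 8 oligodendrocyte markers 1, MOBP, was higher in dorsal tissue, with sums of 6554 to 10815 CPM in dorsal and 3770 to 8226 CPM in ventral libraries. Of the astrocyte, microglia and endothelial lists 0 of 8, 0 of 7 and 0 of 8 tested genes were called. The part of these tissues in the ESR1 difference was not tested.

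The genes whose log2 CPM was most like that of ESR1 over the 12 libraries, out of 12617 compared, were CORO2A, CSMD2, PLCH1, TRIM21 and RASGEF1B, with Pearson r between 0.956 and 0.981. CORO2A encodes a coronin that binds actin, PLCH1 a phospholipase C and TRIM21 a ubiquitin ligase that recognises antibodies in the cytosol. Their deviations from the group means also ran with those of ESR1, with r between 0.844 and 0.932. CORO2A, CSMD2, PLCH1 and RASGEF1B were called lower in dorsal tissue (-0.73, -1.01, -1.14 and -1.24), and TRIM21 was not (-0.96, edgeR adjusted p = 0.0725). All points share the same libraries and their common gradient, and the correlations are a description.

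SRD5A1, the 5-alpha-reductase isozyme that is typical of brain, was counted in every library, with 1280 to 6935 counts, and passed no test between groups. Dorsal control libraries held 137, 110 and 101 CPM and dorsal stress libraries 142, 106 and 105 CPM. Ventral control libraries held 128, 118 and 85.8 CPM and ventral stress libraries 109, 130 and 104 CPM. All groups overlapped, with means of 116 ± 18.5, 118 ± 21.0, 111 ± 22.0 and 114 ± 13.7 CPM in that order (SD, n = 3 each), which differ by far less than their spread.

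Its log2 fold change between dorsal and ventral tissue over both conditions was 0.05 ± 0.15 (edgeR adjusted p = 1.00). The 95% interval ran from -0.27 to 0.38, so that a difference of the size seen for ESR1 lies outside it. In control ewes the difference was 0.07 ± 0.21 and in stressed ewes 0.04 ± 0.21. Stress changed SRD5A1 by 0.02 ± 0.21 in dorsal and 0.05 ± 0.21 in ventral tissue (95% intervals -0.44 to 0.48 and -0.41 to 0.51), and the difference of both was -0.03 ± 0.30. All 6 of these comparisons had an edgeR adjusted p of 1.00. SRD5A1 varied along the common gradient of the libraries instead: the 4 libraries with the highest levels, dorsal stress 1, dorsal control 1, ventral stress 2 and ventral control 1, were the 4 lowest on the first principal component (-103 to -35.6). The lowest level, in ventral control 3, was found in the library highest on it.

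Genes most like SRD5A1 over the 12 libraries were CHCHD4 and TOMM22, which both serve protein import into mitochondria, the transcriptional repressor SKI, the actin-depolymerising factor DSTN and PLCL2. Their Pearson r lay between 0.957 and 0.964 over 12617 genes compared, and between 0.969 and 0.981 for deviations from the group means. None of these 5 was called between the regions.

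**Figure D2:**
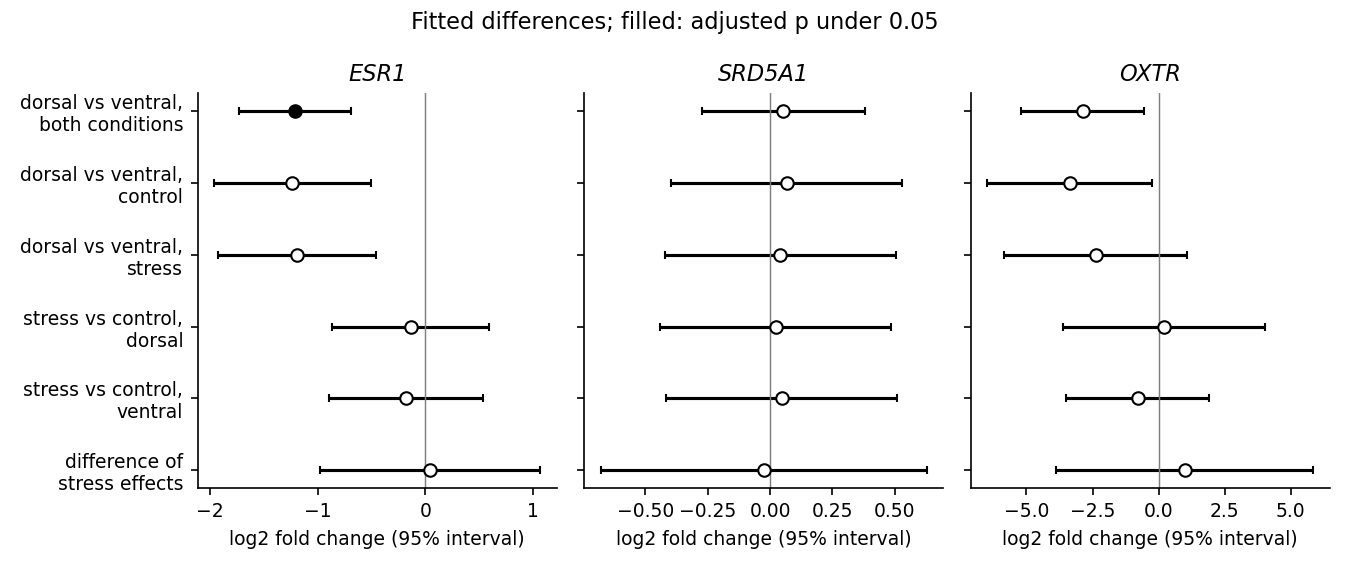
Fitted log2 fold changes of the 3 tested genes in the 6 comparisons, with 95% intervals and filled points for an edgeR adjusted p under 0.05; the horizontal scales differ. The ESR1 difference over both conditions, -1.21, is the filled point, and the OXTR intervals are several times wider than those of SRD5A1.

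OXTR, the oxytocin receptor, was scarce in all libraries and was seen mainly in ventral ones. Dorsal control libraries held 0, 6 and 0 counts and dorsal stress libraries 2, 1 and 0. Ventral control libraries held 21, 5 and 30 counts and ventral stress libraries 4, 0 and 25. In control ewes the regions did not overlap (0 to 0.135 CPM in dorsal, 0.248 to 0.840 CPM in ventral), as for 11.7% of tested genes. In stressed ewes they did, since ventral stress 2 had 0 counts, which allows up to 0.119 CPM at 3 counts. Summed over libraries, OXTR had 9 dorsal and 85 ventral counts, which is 0.0516 against 0.465 CPM on raw totals.

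The fitted log2 fold change of OXTR between the regions was -2.88 ± 1.05 over both conditions (edgeR adjusted p = 0.205; 95% interval -5.19 to -0.56). In control ewes it was -3.37 ± 1.41 (edgeR adjusted p = 0.492) and in stressed ewes -2.39 ± 1.57 (edgeR adjusted p = 1.00). Leaving out 1 library at a time gave values from -4.66 (without dorsal control 2) to -1.92 (without ventral stress 3) over both conditions. In control ewes it gave -6.93 (without dorsal control 2, which leaves 0 counts in that group, so that the fitted value is no bound) to -2.75 (without dorsal control 1). None of these passed the test. OXTR passed the filter on low counts through the ventral libraries in which it was high, and the regional value is therefore not independent of the filter. Stress against control gave 0.19 ± 1.73 in dorsal and -0.80 ± 1.23 in ventral tissue, and the difference of both was 0.98 ± 2.203 (edgeR adjusted p = 1.00 each). Its most similar genes, SNX33, RAB6B, TTC39C, ZKSCAN5 and TRNT1 (r between 0.839 and 0.896 over 12 libraries), were not called between the regions.

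ESR2, the beta form of the oestrogen receptor, was counted in 11 of 12 libraries, mostly with few reads. Dorsal control libraries held 7, 1 and 2 counts and dorsal stress libraries 0, 3 and 2. In ventral control libraries the counts were 5, 5 and 52, and in ventral stress libraries 5, 8 and 24. The ranges of the regions overlapped in control ewes and did not overlap in stressed ewes (0 to 0.163 CPM in dorsal against 0.193 to 0.715 CPM in ventral). Among tested genes, which do not include ESR2, 13.7% did not overlap in stressed ewes. At counts this low the ESR2 ranges turn on a few reads. With no filter on low counts, the log2 fold change over both conditions was -2.43 ± 0.83 (edgeR adjusted p = 0.209).

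PGR, the progesterone receptor, had the same order of regions with another spread over libraries. Dorsal control libraries held 3, 1 and 4 counts and dorsal stress libraries 2, 4 and 0. Ventral control libraries held 20, 9 and 6 counts and ventral stress libraries 5, 5 and 6. In control ewes every ventral library (0.168 to 0.481 CPM) lay above every dorsal one (0.0225 to 0.156 CPM), while in stressed ewes the ranges overlapped. Among tested genes, which do not include PGR, 11.7% did not overlap in control ewes. The log2 fold change with no filter was -1.51 ± 0.69 over both conditions (edgeR adjusted p = 0.450). Stress against control in ventral tissue gave -0.90 ± 0.91 with no filter (edgeR adjusted p = 1.00).

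CYP19A1, the aromatase gene, was counted in 2 libraries only, ventral control 3 with 6 and ventral stress 3 with 7 counts. All 6 dorsal libraries and the other 4 ventral libraries held 0. In dorsal tissue 0 counts over all 6 libraries allow a level of up to 0.0172 CPM at 3 counts over the region. The 0.0711 CPM pooled over ventral tissue is 4.14 times that limit. This pooled level rests on the 2 libraries with counts and gives no lower bound for the ventral libraries as a group. With no filter the region comparison had an edgeR adjusted p of 0.472.

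Most ventral counts of ESR2, OXTR and CYP19A1 came from ventral control 3 and ventral stress 3. This pair held 37.1% of all ventral counts. The pair held 76.8% of the ventral ESR2 counts (76 of 99; 95% Clopper-Pearson interval 67.2% to 84.7%), 64.7% of those of OXTR (55 of 85; 53.6% to 74.8%) and 100% of those of CYP19A1 (13 of 13; 75.3% to 100%). For ESR1 the share was 49.3% (866 of 1755; 47.0% to 51.7%), and for PGR 23.5% (12 of 51; 12.8% to 37.5%). SRD5A1 stood at 32.2%. The intervals cover counting error only, not the difference between pools. The pair was picked after seeing the data, so that the shares are a description and no test.

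Without this pair of libraries, the pooled ventral level of ESR2 was 0.200 CPM (23 counts) against 0.0860 CPM in dorsal tissue, a ratio of 2.33 in place of 6.30 with them. The same ratio for OXTR was 5.05 (30 counts) in place of 9.01, and for PGR 4.22 (39 counts) in place of 3.48. For CYP19A1 nothing was left. The pair also lay highest on the first principal component, and anterior pituitary markers summed to 101 CPM in ventral control 3 against 7.89 and 13.0 CPM in the other ventral control libraries, and to 27.0 against 4.95 and 22.3 CPM in ventral stress. The pituitary sums were highest in the dorsal control libraries, at 133, 113 and 153 CPM, which together held 10 counts of ESR2, 6 of OXTR and 0 of CYP19A1. Hypothalamic markers summed to 5.85 and 2.18 CPM in the pair, each the lowest sum of its group. In ventral control 3, 1 of these 12 markers had 0 counts, against 4 and 6 in the other ventral control libraries. For ventral stress 3 this number was 3, against 1 and 4 in the other ventral stress libraries. The part of other tissue in the counts of ESR2, OXTR and CYP19A1 was not tested.

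**Figure D3:**
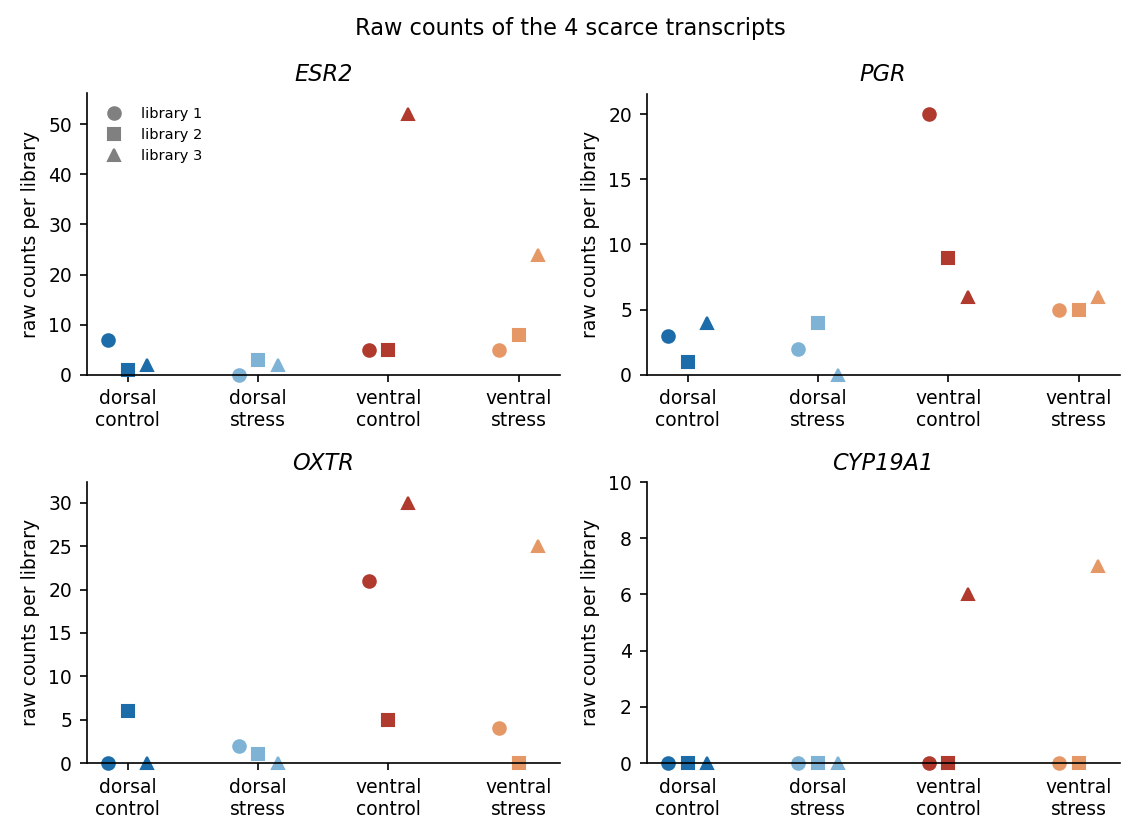
Raw counts of ESR2, PGR, OXTR and CYP19A1 in each library by group, with marker shapes for libraries 1 to 3. The triangles of ventral control 3 and ventral stress 3 are highest for ESR2 (52 and 24), OXTR (30 and 25) and CYP19A1 (6 and 7) but not for PGR, where ventral control 1 has 20.

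Other genes of the same pathways were read from lists of 99 genes, of which 83 were tested. Between the regions 5 were lower and 0 higher in dorsal tissue, beside 3.07% and 1.44% of all genes, and the median log2 fold change was -0.13 against -0.02 over all tested genes. In control ewes 1 was lower and 0 higher, and in stressed ewes 0 differed. Stress changed 0 of 83 in dorsal tissue, 0 in ventral tissue and 0 in the difference.

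Among 12 tested genes known to be induced by oestrogen, 1 was lower in dorsal tissue and 0 were higher, and 10 had negative values (median -0.29). It was GREB1, an ESR1 cofactor and one of its most direct targets. GREB1 stood at 1.52, 1.24 and 2.27 CPM in dorsal control libraries and 0.895, 2.33 and 0.817 CPM in dorsal stress libraries. Ventral control libraries held 1.78, 8.13 and 6.44 CPM and ventral stress libraries 5.18, 7.74 and 4.59 CPM. Ventral control 1, which was also the lowest ventral library for ESR1, overlapped the dorsal range. The log2 fold change was -1.90 ± 0.42 (edgeR adjusted p = 0.0275). This call was lost when 1 library was left out in 8 of 12 cases: any of the dorsal control libraries, number 1 or 3 of dorsal stress, number 2 of ventral control, or number 1 or 2 of ventral stress (highest edgeR adjusted p = 0.0836). It was also lost with limma-voom (adjusted p = 0.0648). The same held in the fit that included the choroid plexus score (-2.12 ± 0.91, edgeR adjusted p = 0.835), which called no gene over both conditions.

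Of 14 tested genes of the prolactin receptor pathway 2 were lower in dorsal tissue and 0 higher (median -0.20). STAT5B, a transcription factor that prolactin and growth hormone receptors activate, stood between 36.4 and 39.5 CPM in the 6 dorsal libraries and between 50.3 and 65.7 CPM in the 6 ventral ones. Its log2 fold change was -0.71 ± 0.11 (edgeR adjusted p = 0.00532). SOCS2, a feedback inhibitor of the same receptors, ranged from 3.09 to 4.61 CPM in dorsal and from 7.76 to 14.5 CPM in ventral libraries. Its log2 fold change was -1.38 ± 0.19 (edgeR adjusted p = 0.00337), and within control ewes -1.43 ± 0.27 (edgeR adjusted p = 0.0401). For both genes the regions did not overlap, as was the case for 4.9% of all tested genes. Both calls over both conditions held without each single library and without the pair of ventral libraries. When the choroid plexus score was added they were lost (-0.68 ± 0.24, adjusted p = 0.722, and -1.20 ± 0.41, adjusted p = 0.682, in edgeR). That score itself tended to be higher in dorsal libraries, and the fit with it called no gene at all over both conditions. The SOCS2 call in control ewes was lost without 10 of the 12 libraries in turn, all but ventral control 1 and ventral stress 2 (highest adjusted p = 0.177). It was also lost with no filter on low counts (edgeR adjusted p = 0.0609).

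Of 8 tested genes of the gonadotropin axis 2 were lower in dorsal tissue and 0 higher (median -0.46). KISS1, the kisspeptin gene whose peptide drives GnRH neurons, had 1 to 11 counts in dorsal and 12 to 21 counts in ventral libraries. The levels, 0.0497 to 0.253 CPM against 0.288 to 0.812 CPM, did not overlap, as for 4.9% of all tested genes. The log2 fold change was -1.81 ± 0.44 (edgeR adjusted p = 0.0422). KISS1 passed the filter on low counts through the ventral libraries in which it was high. Its overlap and its regional value are therefore not independent of the filter. TACR3, the receptor of neurokinin B, held 1 to 26 counts in dorsal and 19 to 183 counts in ventral libraries, with an overlap between dorsal control 2 and ventral control 1. Its log2 fold change was -3.05 ± 0.71 (edgeR adjusted p = 0.0353). TACR3 too passed the filter through the ventral libraries in which it was high, so its regional value is not independent of the filter. KISS1 lost its call without any library except dorsal stress 2 and ventral control 1 (highest adjusted p = 0.122), and TACR3 without any except dorsal control 2 and ventral control 1 (highest adjusted p = 0.0910). Without the pair of ventral libraries 3 the calls of GREB1, KISS1 and TACR3 were lost too (edgeR adjusted p = 0.0612, 0.102 and 0.0883). In the fit that included the choroid plexus score KISS1 had -2.08 ± 0.90 and TACR3 -1.21 ± 1.19 (edgeR adjusted p = 0.835 each). With limma-voom the TACR3 call was lost (adjusted p = 0.139), as it was with thinned counts (edgeR adjusted p = 0.0716). With no filter on low counts the KISS1 call was lost (edgeR adjusted p = 0.0773). KISS1 was not tested with thinned counts or with a filter of 1 CPM.

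**Figure D4:**
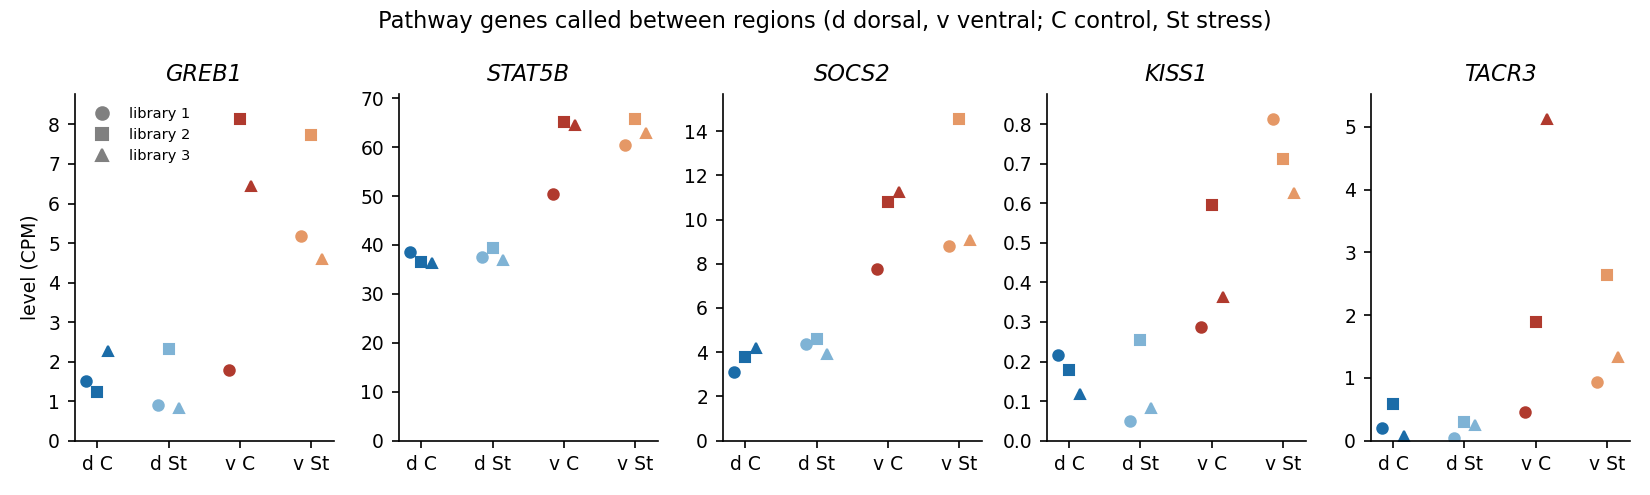
Levels in CPM of the 5 pathway genes called between the regions, by library and group (d dorsal, v ventral, C control, St stress), with marker shapes for libraries 1 to 3. STAT5B, SOCS2 and KISS1 values of the regions do not overlap, as for 4.9% of all tested genes. Ventral control 1 lies within or next to the dorsal range for GREB1 (1.78) and TACR3 (0.457).

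The remaining lists had no called gene. Of 11 other sex steroid receptors tested, 9 had negative values; the membrane progestin receptor PAQR7 had -0.79 ± 0.21 (edgeR adjusted p = 0.0695) and PGRMC1 -0.35 ± 0.19 (edgeR adjusted p = 0.532). Of 14 steroid receptor coregulators 9 were positive, with the cochaperone FKBP4 at 0.31 ± 0.26 (edgeR adjusted p = 0.836). Of 16 tested genes of neurosteroid synthesis and breakdown, the sulfotransferase SULT2B1 had -1.47 ± 0.38 (edgeR adjusted p = 0.0548) and SRD5A3, a relative of SRD5A1, 0.33 ± 0.16 (edgeR adjusted p = 0.414). In the oxytocin and vasopressin list of 9 tested genes the values nearest to a call were RGS4 (-1.25 ± 0.73) and the vasopressin receptor AVPR1A (0.56 ± 0.39), with edgeR adjusted p of 0.580 and 0.719. The peptide gene OXT, looked up because it encodes the ligand of OXTR, had 0 to 6 counts in every library.

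For stress, the smallest p-values in these lists belonged to HSD17B3, which makes testosterone, and to PRL in dorsal and SOCS3 in ventral tissue. HSD17B3 had -1.45 ± 0.61 in dorsal and 1.22 ± 0.55 in ventral tissue, and the difference of both was -2.67 ± 0.82 (edgeR adjusted p = 1.00 each). SOCS3, a feedback inhibitor of cytokine receptors, had -1.59 ± 0.66 in ventral tissue (edgeR adjusted p = 1.00). PRL, a pituitary hormone gene, had -3.69 ± 1.63 in dorsal tissue (edgeR adjusted p = 1.00). The 12 anterior pituitary markers summed to 113 to 153 CPM in dorsal control libraries, with 0 to 4 of them at 0 counts, and to 5.62 to 12.7 CPM in dorsal stress libraries, with 5 or 6 at 0 counts. Of the 7 tested, 0 were called for stress in dorsal tissue, and the part of pituitary RNA in the stress values of the receptors was not tested.

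**Figure D5:**
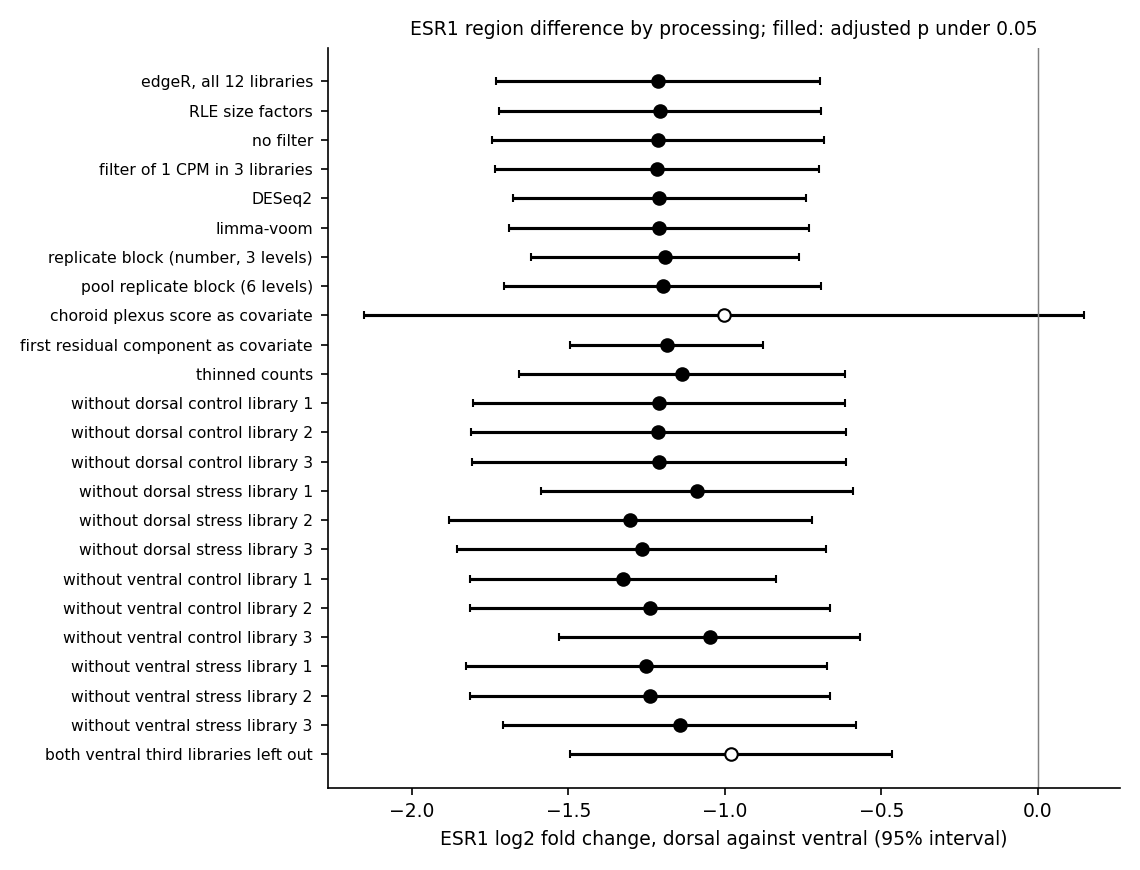
Log2 fold change of ESR1 between dorsal and ventral hippocampus with its 95% interval under each way of processing, with filled points for an adjusted p under 0.05; intervals of DESeq2 and limma-voom use the normal quantile. All values lie between -1.33 and -0.98, and the 2 open points are the fit with choroid plexus markers and the fit without ventral control 3 and ventral stress 3.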

How the data were processed

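The deposited table holds raw gene counts of 12 libraries, whole numbers in 1 column each, per the file headers. The TruSeq stranded mRNA kit was used for all libraries, per the labels' protocols. The submitters' processing notes name featureCounts 2.0.0, TopHat2 2.1.1 with Bowtie2 2.3.5.1, SAMtools 1.9, FastQC and bcl2fastq 2.20. No source used here gives the build, annotation or strand setting, so positions are not printed and antisense reads cannot be told apart. A RefSeq table (ARS-UI_Ramb_v3.0) replaced 471 placeholder names.

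The analysis used edgeR 4.0.16 (R 4.3.3): filterByExpr by group, TMM, a robust quasi-likelihood fit with 1 mean per group, F tests of 6 comparisons, and Benjamini-Hochberg adjustment over all 17806 tested genes, threshold 0.05. SEs are log2 fold changes over the root of F. Similar genes were ranked by Pearson r of log2 CPM (prior count 2) among named genes with a mean of at least 1. Named genes were the members, each pathway list's called genes or else its 2 with the smallest p, the 5 most similar genes, and markers a result turns on. Some genes these rules name are not reported here. OXT and GHR were named after their values were seen. Members and lists were chosen with earlier results of these data known. The labels do not say whether pools of a number share ewes, and p-values measure the spread between pools. On data simulated for the regions over both conditions (17552 genes), 21 of 100 genes changed by 1 log2 unit and 78 of 100 changed by 2 were recovered, with 2 false calls. The changed genes had a mean of at least 1 CPM, so these rates do not cover OXTR, ESR2, PGR, CYP19A1 or KISS1. The simulated libraries also lacked the common gradient of the real ones. Alternatives were RLE factors, other filters, DESeq2 1.42.0, limma-voom (limma 3.58.1), replicate blocks, covariates, thinned counts and fits without libraries; leaving out ventral control 3 and ventral stress 3 together was chosen after seeing the data. No pair of libraries of a group agreed within sampling noise (lowest chi-square 20.2 per degree of freedom).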

Additional observations from a re-analysis of the deposited data

How the results depend on the processing

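ESR1 stayed lower in dorsal tissue in all 23 alternatives (-1.33 to -0.98). Its call over both conditions was lost with the choroid plexus score and without both ventral control 3 and ventral stress 3. DESeq2 called it also within control (adjusted p = 0.00866) and stressed ewes (0.0221), as did the first residual component as a covariate (0.00218 and 0.00272 in edgeR). The component was computed from the deviations of these same libraries from their group means and held 66.1% of that variance. As a covariate it lowers the residual spread for many genes at once, so calls with it are no separate support. That covariate also called OXTR over both conditions (-2.75 ± 0.90, edgeR adjusted p = 0.0452). All other changes of sign concern values that were not called.

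Numbers of called genes over both conditions, in control and in stressed ewes were 803, 178 and 79. They were 1558, 728 and 580 with DESeq2, which also called 1 gene for stress in each region. The replicate block by number gave 1375, 440 and 314, the choroid plexus score 0, 0 and 4 (1002, 543 and 1070 at an unadjusted p under 0.05) and the first residual component 3761, 2003 and 1589. Limma-voom gave 27 in stressed ewes, and without both ventral libraries 91 and 35 were called in control and stressed ewes. Leaving out 1 library gave 420 to 1091, 2 to 319 and 1 to 159.

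Of 6 pairs of libraries with the same number in both regions 4 had deviations correlated above 0.1 (r from -0.233 to 0.761), and 6 of 12 libraries correlated best with their own number, so that the numbers were not taken to pair the samples. With the replicate block by number ESR1 over both conditions had -1.19 ± 0.19 (edgeR adjusted p = 0.00489), and with a block for the 6 pools -1.20 ± 0.22 (0.0250). The block for the pools ended the calls of KISS1 (edgeR adjusted p = 0.103), TACR3 (0.0560) and SOCS2 in control ewes (0.0505), which the block by number kept.

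The difference of the stress effects on ESR1 turned to -0.10 with limma-voom, -0.050 with the replicate block, -0.14 with the choroid plexus score, -0.061 with the residual component and -0.15 without both ventral libraries. Without them stress in ventral tissue gave 0.013 for ESR1, and SRD5A1 had -0.053, -0.086 and -0.021 between regions (both conditions, control, stress), -0.044 for stress in ventral tissue and 0.065 for the difference. With the choroid plexus score SRD5A1 had -0.13, -0.20 and -0.054 between regions and 0.14 for the difference, and OXTR 0.38 and 1.23 between regions (both conditions, control), -3.26 for stress in dorsal tissue and -1.70 for the difference. Thinned counts gave 0.012 for the SRD5A1 difference, and no filter -0.00078 for SRD5A1 under stress in dorsal tissue. The cause was not tested.

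Leaving out 1 library gave -0.31 to 0.11, -0.40 to 0.15 and -0.29 to 0.29 for ESR1 under stress in dorsal tissue, in ventral tissue and for the difference. For SRD5A1 it gave -0.024 to 0.11, -0.086 to 0.18 and -0.12 to 0.14 between regions, and -0.13 to 0.16, -0.10 to 0.16 and -0.18 to 0.13 for stress and the difference. For OXTR under stress in dorsal tissue it gave -0.61 to 3.76. CPM on raw library totals moved no group mean of a member by more than its SD. The low counts of ESR2, PGR, OXTR and CYP19A1 limit what could be detected.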

Other observations

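GHR, the growth hormone receptor, which shares JAK2 and STAT5 with the prolactin receptor, stood at 23.6 CPM in ventral control 3 and 23.7 CPM in ventral stress 3. The other 4 ventral libraries held 5.09 to 8.78 CPM and the dorsal libraries 3.48 to 13.5 CPM.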
